A study of Mus musculus with 5 samples.

Results

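The outflow tract (OFT) of the wild-type mouse heart at E10.5 was compared with the atria and with the ventricles of the same stage, each chamber separately, for genes of smooth muscle, neural crest, second heart field and vessels. The comparison uses 3 of the 5 Tag-seq libraries of the series, 1 per region, and the atrioventricular canal (AVC) library served as a further reference. All 4 libraries came from wild-type C57BL/6 embryos at Theiler stage 17 with no treatment, and each holds hand-dissected tissue of at least 3 pooled litters. With 1 library per region there is no replicate error, so every test below compares libraries and not conditions. The members are the 194 genes of 4 lists, taken by the known roles of the genes and with earlier results of these data known. Of these, 170 were found in at least 1 of the 3 libraries, out of 12451 genes found in all. Because the lists were chosen in this way, their counts of calls describe these libraries and are no independent support for a difference.

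The OFT is the vessel at the arterial pole of the embryonic heart that is later divided into the aorta and the pulmonary trunk. Its muscle is added from the second heart field, a progenitor population in the pharyngeal mesoderm marked by the LIM homeodomain factor Isl1, while neural crest cells enter it from the pharyngeal arches and contribute to its septum and to the smooth muscle of the great arteries. Both populations respond to FGF, BMP, endothelin and semaphorin signals, and the outer wall acquires smooth muscle and an elastic matrix. The chambers, in contrast, are built largely of working myocardium.

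In Tag-seq, bead-bound cDNA is digested with NlaIII, and the 17 bases after a cut site are sequenced as a tag. Each distinct tag sequence is a tag type with a count. The tag types below carry the main differences. Each is shown with the NlaIII site in capitals and the counted tag in lower case, with its position on GRCm38 and the site counted from the 3′ end of its transcript.
Isl1, chr13:116299256-116299276, minus strand, 3′ UTR in exon 6 of 6, site 3: CATGggattttactagaataa
Rgs5, chr1:169695394-169695414, plus strand, 3′ UTR in exon 5 of 5, site 1: CATGgctcacagtacttaagt
Tagln, chr9:45930238-45930258, minus strand, 3′ UTR in exon 5 of 5, site 3: CATGggcagctcccacctatc
Sox9, chr11:112787275-112787295, plus strand, 3′ UTR in exon 3 of 3, site 1: CATGcctctgcaagtgtgtgt
Gata3, chr2:9857983-9858003, minus strand, 3′ UTR in exon 6 of 6, site 5: CATGaaggacgccaagagttt
Bmp4, chr14:46383920-46383940, minus strand, coding sequence in exon 4 of 4, site 1: CATGttgtacctggatgagta
Tnc, chr4:63960096-63960116, minus strand, 3′ UTR in exon 26 of 26, site 1: CATGgtcattctccgagccag
Eln, chr5:134702889-134702909, minus strand, 3′ UTR in exon 37 of 37, site 1: CATGtctcaccaccccacctc
Tcf21, chr10:22817493-22817513, minus strand, 3′ UTR in exon 2 of 2, site 1: CATGaatgactgcaagcctgg
Nr2f2, chr7:70353642-70353662, minus strand, 3′ UTR in exon 3 of 3, site 7: CATGacaaaataacactgttg
Hey1, chr3:8663538-8663558, minus strand, 3′ UTR in exon 5 of 5, site 1: CATGaaaatgtggttcttgca
Ednrb, chr14:103814731-103814751, minus strand, 3′ UTR in exon 8 of 8, site 1: CATGcacttgtaataaagccg
Ednrb, chr14:103816667-103816687, minus strand, 3′ UTR in exon 8 of 8, site 13: CATGacattgcaaaacaattc
Tbx18, chr9:87702869-87702889, minus strand, 3′ UTR in exon 8 of 8, site 1: CATGcattgttgcattgttaa
Tbx18, chr9:87704970-87704990, minus strand, 3′ UTR in exon 8 of 8, site 10: CATGgactatgtttatccaga
The 8 tags from Isl1 to Eln belong to genes that were higher in the OFT than in both chambers, and the other 7 to genes that were lower. Ednrb and Tbx18 are shown with 2 tag types each because the upstream tag type goes the opposite way against the atria.

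The high quality (HQ) tags numbered 5267618 in the OFT, 4666514 in atria and 4223810 in ventricles. Only tag types with at least 6 tags are listed, so a single tag type needed 1.14, 1.29 or 1.42 TPM (the tags of a type or gene divided by all HQ tags of the library, scaled to 1e+06) to be seen in these libraries. The 2 chamber libraries stand apart from the other 2 in their tags: a gene was seen through 1.54 tag types on average in atria and 1.57 in ventricles, against 2.37 in the OFT and 2.41 in the AVC. Of the tags given to genes, 69.1% in the OFT came from the site nearest the 3′ end, against 80.3% in the atria and 74.8% in the ventricles. Tags that begin with T made up 15.0, 32.1 and 22.2% of the 3 libraries, and globin tags 0.307, 21.5 and 4.67%. Some genes had both kinds of tag type, well counted and listed in the OFT and the chamber. In these genes tags that begin with T more often had the lower ratio of the OFT over the chamber. This held in 59.8% of 686 genes for the atria and in 64.7% of 748 for the ventricles. The median log2 difference was −0.57 for the atria and −0.73 for the ventricles. These differences fall between the regions compared and cannot be told apart from them. For this reason levels are given in TPM as listed, whereas ratios were taken after TMM scaling, which lowers log2 ratios by 0.90 against the atria and by 0.58 against the ventricles, so that the median over all genes listed in both libraries is 0.02 and 0.04. All folds and log2 ratios below are after this scaling. Read from the TPM values, a ratio of the OFT over a chamber would be larger, and a ratio of a chamber over the OFT smaller.

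A gene was called when the two-sided exact test of edgeR, with the dispersion fixed at 0.12, gave an unadjusted exact p under 0.05, and it was called higher or lower than both chambers when both tests agreed in direction. Against both chambers, 69 of the 166 members that could be tested were higher in the OFT and 14 were lower, whereas 21% of all genes tested were higher and 10% lower. Against the atria alone 74 members were higher and 24 lower (27.4 and 15.6% of all genes), and against the ventricles 84 were higher and 17 lower (28.7 and 14.9%). No member was called in opposite directions against the 2 chambers. The median log2 ratio of the members, with an absent gene set at its bound, was 0.91 over the atria and 1.17 over the ventricles, beside 0.06 and 0.13 over all genes tested against both. The split between higher and lower rests on the scaling: 67.6% of all calls were higher with TMM and 86.6% with HQ totals alone. HQ totals raise every ratio of the OFT over a chamber, so they could not take away a higher call. All 2500 genes called higher, the 69 members among them, were kept. Of the 14 lower members only 6 remained, Aldh1a2, Ednrb, Hey1, Nr2f2, Robo4 and Tcf21.

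By list, 19 of 30 tested neural crest members were higher than both chambers, 12 of 27 smooth muscle members, 27 of 76 vascular members and 11 of 33 second heart field members. Lower members numbered 1, 2, 7 and 4 in the same order. Of all genes tested, 21% were higher and 10% lower. Among the higher members, 23 were not listed in either chamber, beside 1281 of all 2500 genes called higher. A zero can hide up to 5 tags of each tag type, and with 5 tags put in for every missing tag type 51 of the 69 members remained higher, 8 of them among the 23. With this filling 47.7% of all genes called higher were kept. Besides those named below, Cald1, Plvap and Sox18 lost their calls in this way. Of the 46 higher members listed in at least 1 chamber, 17 had a ratio that moved by over 1.5 times with this filling, and for those whose fold is printed the filled value is given beside it. With only the 3′-most site of each transcript 57 of the 69 remained, beside 77.4% of all genes called higher. Without tags that begin with T 51 of the 69 remained, beside 81.6%.

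**Figure D1:**
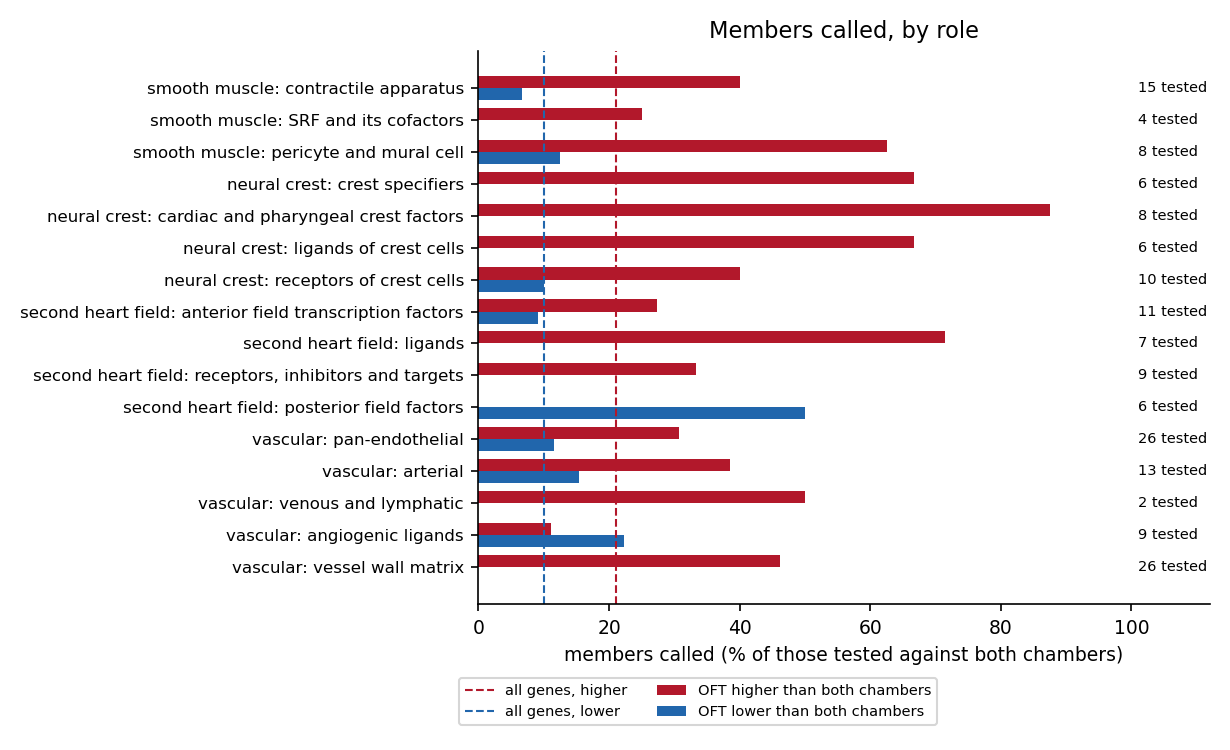
Percent of members called higher (red bars) or lower (blue bars) in the OFT than in both chambers, by role, with the number tested at the right and dashed lines for the 21% and 10% of all genes. Cardiac and pharyngeal crest factors reach the largest share called higher, 7 of 8, and posterior second heart field factors have 3 of 6 called lower and none higher.

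Smooth muscle genes were higher in the OFT for part of the contractile apparatus (6 of 15 tested, beside 21% of all genes). The best known early marker of the group, Acta2, was not called. Tagln, which encodes the actin-binding protein transgelin, had 443.7 TPM in the OFT (95% interval 425.9 to 462.0 from counting alone), 51.4 in atria and 70.6 in ventricles. The OFT stood above both chambers, by 4.61-fold over the atria (exact p = 0.00351) and 4.20-fold over the ventricles (exact p = 0.00582). Acta2, smooth muscle actin, had 399.0 TPM in the OFT, 101.6 in atria and 184.4 in ventricles, and after scaling its log2 ratios of 1.07 and 0.53 did not pass (exact p = 0.142 and 0.462). Tags that begin with T made up 97.2% of its OFT tags. Embryonic cardiomyocytes also make Acta2 and Tagln.

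Des, the intermediate filament desmin of all muscle types, had 352.3 TPM against 8.79 in atria and 31.5 in ventricles (log2 ratios 4.42 and 2.90, exact p = 1.66e-07 and 0.000197). Tpm2, a tropomyosin, had 264.1 TPM against 31.1 and 26.5 (exact p = 0.00404 and 0.000428). Synpo2, an actin-bundling protein of muscle, had 86 tags in the OFT and was not listed in either chamber (exact p = 4.17e-06 and 2.69e-06). The remaining called members were Cald1 and Csrp2. In the other direction Actg2, the enteric smooth muscle actin, had 6.07 TPM in the OFT, 17.1 in atria and 24.1 in ventricles (log2 ratios −2.40 and −2.57), through a tag that spans the junction of its last exons. Cnn1, Myl9 and Lmod1 did not pass against either chamber, and Myh11, the smooth muscle myosin heavy chain of mature vessels, was not found.

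Of the transcription factors behind this programme, Srf had 104.8 TPM in the OFT, 9.21 in atria and 5.45 in ventricles, and was called higher than both (log2 ratios 2.60 and 3.69, exact p = 0.00102 and 1.04e-05). Its cofactor Myocd had 18.98 TPM in the OFT, was not listed in the atria and had 5.92 TPM in the ventricles, which left it without a call there (exact p = 0.179). The other cofactors, Mrtfa and Mrtfb, passed neither test.

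Of the mural cell genes, 5 of 8 tested members were higher, beside 21% of all genes. Rgs5, a regulator of G protein signalling known from pericytes, had 178.4 TPM in the OFT (167.2 to 190.2), was not listed in the atria and had 1.89 TPM in the ventricles (0.818 to 3.73). The ratio was at least 14.8-fold over the atria (exact p = 4.83e-14) and 63.0-fold over the ventricles (exact p = 4.18e-10), where 1 of its tag types was listed, and 15.4-fold over the ventricles with 5 tags for each missing one. All 6 of its tag types in the OFT were higher there than in both chambers. Mcam, a cell adhesion molecule of vessel walls, had 52.4, 5.57 and 6.39 TPM (exact p = 0.00390 and 0.00242). It lost its call without tags that begin with T, which are 84.4% of its OFT tags. Pdgfrb, the PDGF receptor through which mural cells are recruited, had 55 tags in the OFT, the Notch target Heyl had 39 and Anpep had 22, and none of these genes was listed in either chamber. Their calls against the chambers were lost with 5 tags for a missing tag type. Abcc9, a subunit of the potassium channel of mural cells and heart muscle, went the other way with 10.4 TPM in the OFT, 20.1 in atria and 38.6 in ventricles (exact p = 0.0179 and 0.00189).

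**Figure D2:**
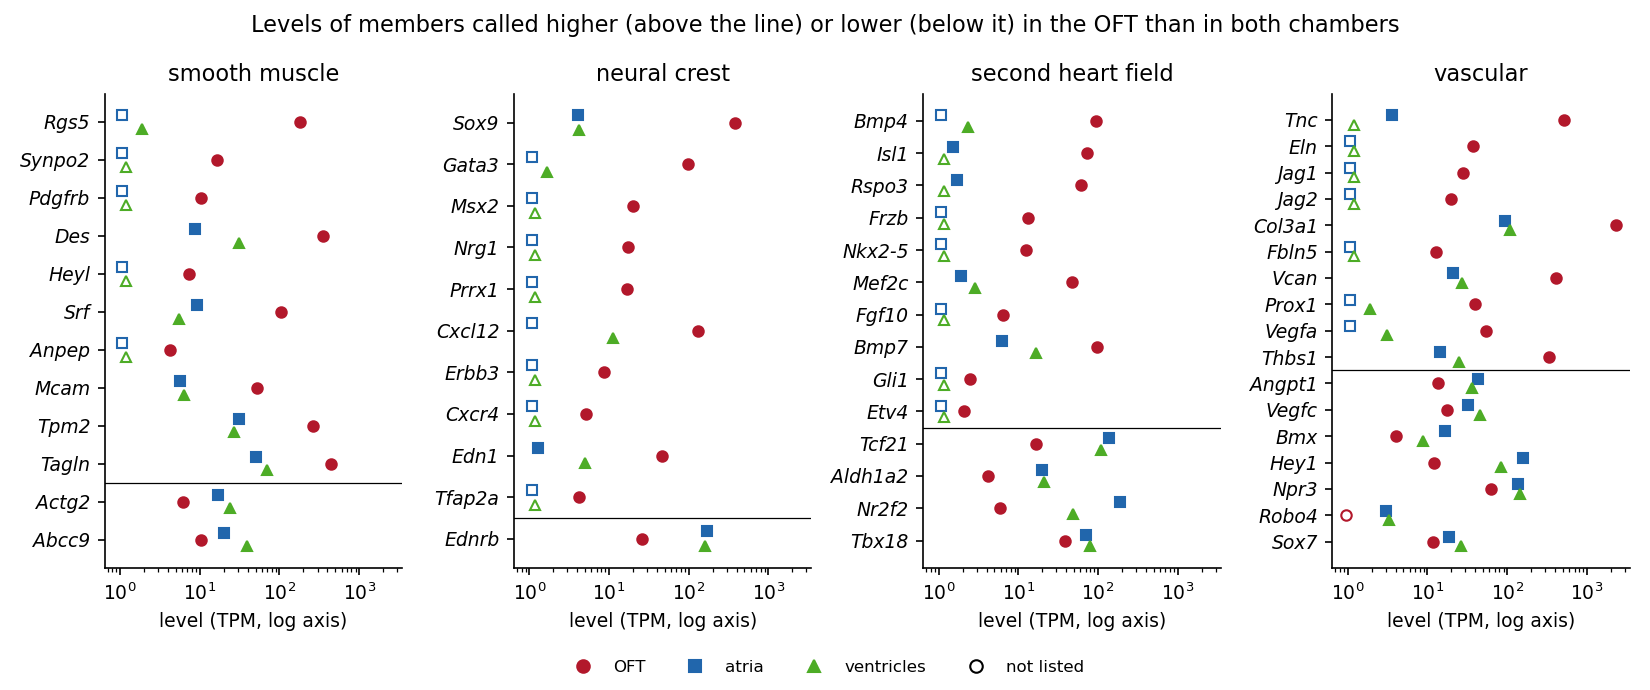
Level in TPM on a log axis of the members of each list called higher (above the line, at most 10 per list in order of the larger of the 2 exact p) or lower (below it) in the OFT than in both chambers. Circles are the OFT, squares the atria and triangles the ventricles, 1 library each, and open symbols mark genes not listed, drawn at the level of 5 tags, where Rgs5 in the atria lies beside its 178.4 TPM in the OFT.

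Neural crest genes had the largest share of higher members, beside 21% of all genes. It was spread over specifiers (4 of 6 tested), cardiac and pharyngeal crest factors (7 of 8), ligands (4 of 6) and receptors (4 of 10). Sox9, which acts in crest specification and in cushion mesenchyme, had 377.0 TPM in the OFT, 4.07 in atria and 4.26 in ventricles. The OFT was 49.5-fold above the atria (exact p = 5.24e-10) and 59.1-fold above the ventricles (exact p = 1.15e-10), or 22.4- and 25.1-fold with 5 tags for each missing tag type. Of its 6 tag types in the OFT, a single one was listed in the chambers, the one printed above. Msx2, a homeodomain factor of crest and cushion cells, had 20.1 TPM and Tfap2a, an early specifier, 4.18 TPM, both with no listed tag in either chamber (Msx2, exact p = 9.83e-07 and 6.20e-07). Tfap2a lost its call with 5 tags for a missing tag type. Snai2 was the other called specifier, while Msx1 passed only against the ventricles (exact p = 0.0560 and 0.000171) and Ets1 against neither chamber.

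Several specifiers of migratory crest were missing altogether. Sox10, Foxd3, Pax3 and Tfap2b were not found in the 3 libraries, although each has at least 1 tag by which it could have been seen. Sox10 had 12 tags in the AVC. At this depth their absence means fewer than 6 tags per tag type.

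Among the cardiac and pharyngeal crest factors, Hand2, a bHLH factor of crest and second heart field, had 665.4 TPM in the OFT, 64.1 in atria and 99.0 in ventricles (5.55- and 4.50-fold, exact p = 0.00115 and 0.00394). Gata3 had 99.1 TPM in the OFT, no listed tag in atria and 1.66 TPM in ventricles. It was at least 9.89-fold above the atria (exact p = 5.52e-12) and 40.0-fold above the ventricles (exact p = 1.48e-08), or 10.5-fold above the ventricles with the missing tag types filled. Hand1, Prrx1, Prrx2, Crabp1 and Dlx2 were also called, of which Prrx1 had 16.7 TPM and Dlx2 3.04 TPM with neither listed in a chamber. Both lost their calls with 5 tags for a missing tag type. Twist1 alone of the 8 was short of a call, with 298.8 TPM in the OFT, 63.4 in atria (exact p = 0.0704) and 55.9 in ventricles (exact p = 0.0139).

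The ligands that guide crest cells followed. Cxcl12, the chemokine bound by Cxcr4, had 130.0 TPM in the OFT, was not listed in the atria and had 11.4 TPM in the ventricles (at least 10.8-fold and 7.65-fold, exact p = 6.24e-13 and 0.000217). Edn1, the endothelin that patterns pharyngeal crest, had 46.3, 1.29 and 4.97 TPM (log2 ratios 4.27 and 2.64, exact p = 6.38e-06 and 0.00122), and its ratio over the atria was 19.3-fold, or 7.70-fold when filled. Nrg1, a ligand of ErbB receptors, had 17.5 TPM in the OFT and was not listed in either chamber (exact p = 2.69e-06 and 1.77e-06). Sema3c, a semaphorin needed for septation of the OFT, had 158.3, 13.3 and 36.9 TPM (exact p = 0.000637 and 0.0418), and lost its call when missing tag types were filled. Its neighbour by family Sema3a had 10.1, 8.79 and 12.8 TPM and was not called.

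The receptors were less uniform. Nrp2, Ngfr, Erbb3 and Cxcr4 were higher in the OFT, with Nrp2, a co-receptor for semaphorins and VEGF, at 96.6 TPM against 14.4 and 9.71 (exact p = 0.0155 and 0.000588). Erbb3 and Cxcr4 had 46 and 27 tags in the OFT and none listed in the chambers, and both lost their calls with 5 tags for a missing tag type. Ednrb, the endothelin receptor of crest and melanocyte lineages, was the exception, with 26.01 TPM in the OFT (21.8 to 30.7), 167.4 in atria and 158.4 in ventricles. After scaling, the atria were 12.0-fold above the OFT (exact p = 8.30e-06) and the ventricles 9.11-fold (exact p = 5.69e-05). Ednra, the receptor of Edn1 on crest cells, had 86.2, 161.4 and 102.3 TPM and was lower than the atria only (exact p = 0.0153 and 0.257).

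**Figure D3:**
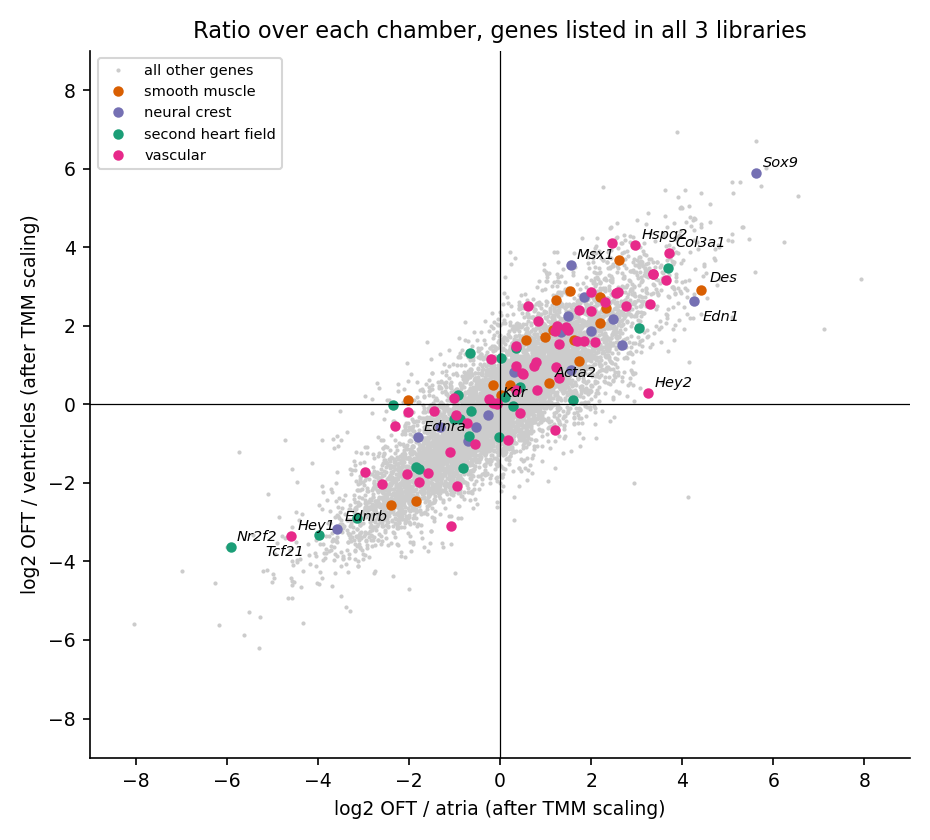
Log2 ratio of the OFT over the atria (horizontal) and over the ventricles (vertical) after TMM scaling, for genes listed in all 3 libraries. Grey points are all other genes and coloured points the members by list. Sox9 lies at 5.63 and 5.89, Nr2f2 at −5.92 and −3.63, Hey2 is near 0 only against the ventricles, and Kdr lies near 0 on both axes.

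Of the second heart field genes, 3 of 11 tested anterior field transcription factors were higher (27.3%, beside 21% of all genes), 5 of 7 ligands and none of 6 posterior field factors. Differences between these groups were not tested. Isl1 had 72.9 TPM in the OFT (65.8 to 80.6), 1.5 TPM in the atria (0.603 to 3.09) and no listed tag in the ventricles. It was 25.99-fold above the atria (exact p = 3.95e-07), or 8.65-fold when filled, and at least 10.3-fold above the ventricles (exact p = 3.97e-11). Mef2c, which acts downstream of Isl1 in the anterior field, had 46.7, 1.93 and 2.84 TPM (13.0- and 10.99-fold, exact p = 3.50e-05 and 6.49e-05), or 4.21- and 4.17-fold when filled. Nkx2-5 had 66 tags in the OFT and none listed in the chambers, although it is a factor of all heart muscle, and its call was lost with 5 tags for a missing tag type. These were the 3 higher anterior field transcription factors. Foxc1, Foxc2, Hes1 and Smyd1 passed neither test. Tbx1 had 9 tags in the OFT and was not listed in the chambers, without a call against both.

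Among the ligands, Bmp4, which the OFT myocardium sends to progenitors and crest, had 93.6 TPM in the OFT, was not listed in the atria and had 2.37 TPM in the ventricles (at least 15.6-fold and 26.4-fold, exact p = 8.71e-12 and 2.29e-07). In the ventricles 1 of its 3 tag types was listed, and the ratio was 13.3-fold when the others were filled. Bmp7 had 96.1, 6.21 and 16.8 TPM (exact p = 0.000174 and 0.0117). It lost its call without tags that begin with T, which are 85.2% of its OFT tags. Rspo3, an enhancer of Wnt signalling, had 61.9 TPM, 1.71 TPM and no listed tag in the same order (exact p = 3.23e-06 and 1.42e-10). Fgf10 and Fgf8, growth factors of the anterior field, had 34 and 10 tags in the OFT and none listed in the chambers. Wnt5a and Wnt11 were not called. Of the receptors, inhibitors and targets, Frzb, a secreted Wnt antagonist, had 70 tags in the OFT, the Hedgehog target Gli1 13 and the FGF target Etv4 11, again with none listed in the chambers. The calls of Fgf8, Fgf10, Frzb, Gli1 and Etv4 were lost with 5 tags for a missing tag type.

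Posterior field factors, known from the venous pole, were lower or without a call in the OFT. Nr2f2, a nuclear receptor of atrial and venous identity, had 5.88 TPM in the OFT, 190.1 in atria and 48.8 in ventricles. After scaling, the atria were 60.4-fold above the OFT (exact p = 9.55e-11) and the ventricles 12.4-fold (exact p = 1.42e-05), and the call was lost with the 3′-most site only. Aldh1a2, which makes retinoic acid, had 4.18, 19.7 and 20.8 TPM (log2 ratios −3.14 and −2.90, exact p = 0.000185 and 0.000684). Tbx18, a factor of the sinus horns and epicardium, had 38.3, 70.5 and 80.5 TPM (exact p = 0.0176 and 0.0271). Of the 7 members of this group that were found, 6 were lower than the atria, beside 15.6% of all genes. Of these 6, 3 were also lower than the ventricles, where 10% of all genes were lower than both chambers. Tbx5, the limb and heart T-box factor, did not pass against the ventricles (exact p = 0.0532), and Wnt2 was listed in the atria alone of the 3 libraries. Tcf21, listed with the anterior field and also known from the epicardium, had 16.5, 139.1 and 110.6 TPM and was lower than both (15.7- and 10.01-fold, exact p = 1.31e-06 and 3.29e-05).

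Aldh1a2, Tbx18 and Tcf21 are made by the epicardium. Of 7 epicardial markers found, 4 were also lower than both chambers, beside 10% of all genes. The epicardial list summed to 78.6 TPM in the OFT, 150.4 in atria and 151.5 in ventricles. Wt1 had 8.54 TPM in the OFT, no listed tag in atria and 1.66 TPM in ventricles. The part of epicardial cells in these values was not tested, and in whole tissue fewer cells of a type and less RNA per cell cannot be told apart.

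Tag types of a single gene did not always move together. Ednrb had 16.9 TPM from its 3′-most tag in the OFT against 165.2 in atria and 157.0 in ventricles, but 7.59 TPM from site 13 against 2.14 TPM and no listed tag. Tbx18 had 13.3 TPM from its 3′-most tag against 67.7 and 68.4, while its site 10 gave 15.0 TPM in the OFT, 2.79 in atria and 12.1 in ventricles. Tagln was read almost wholly through site 3, with 2209 tags in the OFT, and its 3′-most tag had 13 tags in the atria, 12 in the ventricles and none listed in the OFT. In 65 of the 69 higher members every tag type listed in the OFT was higher there than in both chambers after scaling. A tag type not listed in a chamber counted as higher, and 23 of these members were not listed in either chamber. These members were also selected for a higher sum of tags in the OFT. The count therefore cannot show whether their tag types were more uniform, and it was not made for the lower members.

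**Figure D4:**
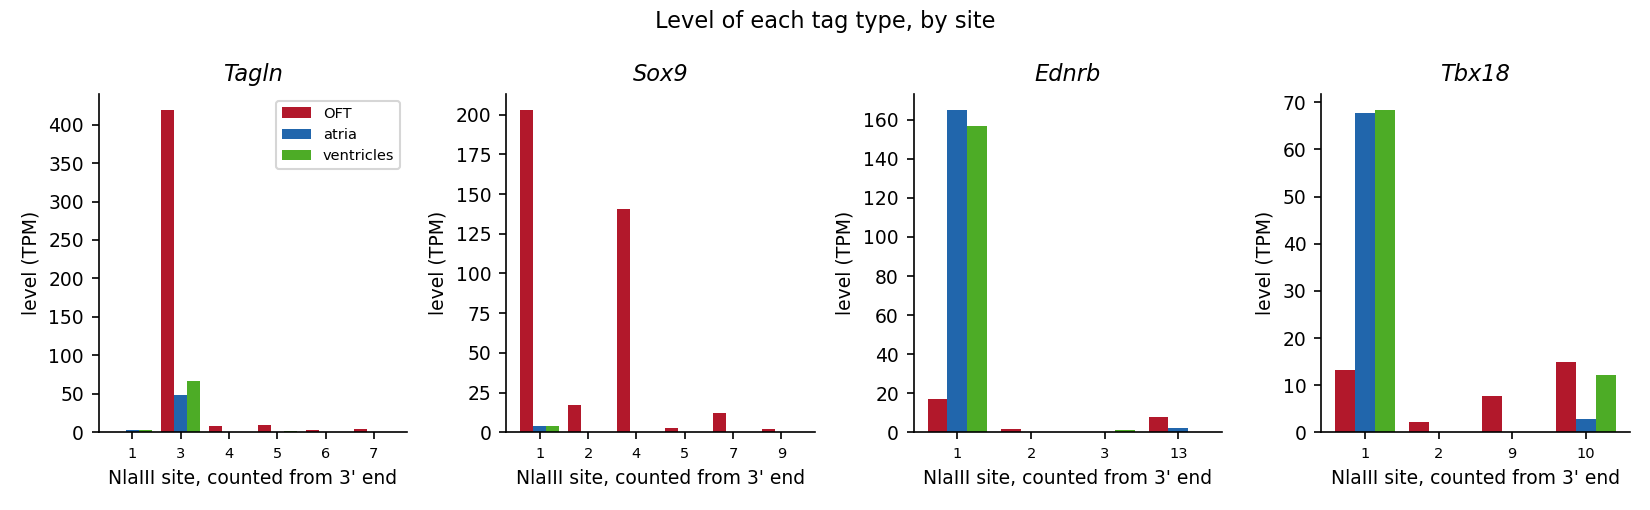
Level in TPM of each tag type of Tagln, Sox9, Ednrb and Tbx18, by its NlaIII site counted from the 3′ end (1 is the nearest), with red bars for the OFT, blue for the atria and green for the ventricles, 1 library each. Sox9 is seen at 6 sites in the OFT and at site 1 alone in the chambers, while Ednrb and Tbx18 have fewer TPM in the OFT than in the chambers at site 1 and more at their farthest site.

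Endothelial genes were partly higher in the OFT, beside 21% of all genes: 8 of 26 tested pan-endothelial members, 5 of 13 arterial ones and 1 of 2 venous or lymphatic ones. Kdr, the main VEGF receptor, had 114.3, 64.5 and 75.1 TPM, and its log2 ratios of −0.08 and 0.03 did not pass (exact p = 0.918 and 0.975). Pecam1, an adhesion molecule of all endothelium, had 49.0 TPM in the OFT (43.2 to 55.3), 2.57 in atria and 3.31 in ventricles (10.2- and 9.88-fold, exact p = 9.51e-05 and 0.000114). Cdh5, the endothelial cadherin, had 108.8, 8.57 and 12.8 TPM (exact p = 0.000511 and 0.00140). Eng, Cd34, Plvap, Plxnd1, Sox17 and Sox18 were higher as well, and Tek, Tie1, Erg and Egfl7 passed neither test.

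Of the pan-endothelial members 3 of 26 were lower than both chambers, beside 10% of all genes. Npr3, a natriuretic peptide receptor of the endocardium, had 62.1 TPM in the OFT, 136.3 in atria and 143.0 in ventricles (exact p = 0.00669 and 0.0169). Sox7 had 11.6, 18.4 and 26.04 TPM (exact p = 0.0426 and 0.0248) and kept its call in 8 of 16 alternatives, and Robo4 was not listed in the OFT and had 14 tags in each chamber.

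Notch ligands of the arterial group were high in the OFT. Jag1 had 27.9 TPM in the OFT (23.6 to 32.8) and was not listed in either chamber, at least 6.97-fold above the atria and 7.88-fold above the ventricles (exact p = 9.81e-08 and 6.02e-08). Jag2 had 19.9 TPM and Dll4 8.35 TPM in the OFT and likewise no listed tag in the chambers. Efnb2, the arterial ephrin, and Unc5b, a netrin receptor, were also higher. The Notch target Hey1 was opposite, with 12.2 TPM in the OFT (9.36 to 15.5), 156.9 in atria and 83.1 in ventricles, after scaling 24.1-fold higher in the atria than in the OFT (exact p = 5.89e-08) and 10.2-fold higher in the ventricles (exact p = 3.19e-05). Its relative Hey2 had 84.1, 4.71 and 46.4 TPM and was higher than the atria only (exact p = 8.55e-05 and 0.712). Both are also expressed in chamber muscle. Bmx, a kinase of arterial endothelium, had 3.99, 16.7 and 8.76 TPM and was lower than both (exact p = 0.000516 and 0.0460), a call that it kept in 7 of 16 alternatives.

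Of 9 angiogenic ligands 1 was higher and 2 were lower, beside 21% and 10% of all genes. Vegfa had 54.5 TPM in the OFT, no listed tag in atria and 3.08 TPM in ventricles (exact p = 6.17e-10 and 4.27e-05). Vegfc, the lymphatic growth factor, had 17.5, 31.9 and 45.9 TPM (exact p = 0.0216 and 0.0103), and Angpt1, the ligand of Tek that heart muscle secretes, had 13.5, 43.5 and 36.5 TPM (exact p = 0.000965 and 0.00914). Prox1, a homeodomain factor of lymphatic endothelium and heart muscle, had 39.1 TPM in the OFT, no listed tag in atria and 1.89 TPM in ventricles (exact p = 7.85e-09 and 3.35e-05).

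Vessel wall matrix genes were higher than both chambers for 12 of 26 members and lower than both for none, beside 21% and 10% of all genes. Tnc, the glycoprotein tenascin C, had 523.0 TPM in the OFT (503.7 to 542.9), 3.64 in the atria (2.12 to 5.83) and no listed tag in the ventricles. It was 76.8-fold above the atria (exact p = 1.78e-11), or 36.9-fold when filled, and at least 59.1-fold above the ventricles (exact p = 4.21e-18). Col3a1, a fibrillar collagen of vessels and cushions, had 2336 TPM against 94.9 and 108.7 (13.2- and 14.4-fold, exact p = 3.39e-06 and 1.77e-06). It lost its call with the 3′-most site only and without tags that begin with T, which are 98.1% of its OFT tags. Vcan, the large proteoglycan of cardiac jelly, had 2133 tags in the OFT, 98 in atria and 114 in ventricles (10.3- and 10.03-fold, exact p = 2.42e-05 and 2.82e-05, or 6.71- and 6.48-fold when filled), and Thbs1, a matricellular protein, had 335.5, 14.4 and 25.1 TPM (exact p = 6.62e-06 and 6.30e-05).

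Elastic fibre genes belong to the same group. Eln, which encodes tropoelastin, had 37.8 TPM in the OFT (32.7 to 43.4) and no listed tag in either chamber, at least 9.43-fold above the atria and 10.7-fold above the ventricles (exact p = 1.03e-08 and 6.37e-09). Without tags that begin with T, which are 97.0% of its OFT tags, its call was lost. Fbln5, which organises elastic fibres, had 12.7 TPM in the OFT and was not listed in the chambers (exact p = 2.09e-05 and 1.40e-05). Fbn2, Ltbp1, Ltbp3 and Mfap2 of the microfibrils were higher too, together with Hspg2 and Col1a1. Emilin1 and Mfap4 were higher than the ventricles only. Lox, with 2.47, 5.36 and 1.89 TPM, was lower than the atria only (exact p = 0.0256 and 0.882). Mfap5, with 2.28, 2.36 and 6.39 TPM, was lower than the ventricles only (exact p = 0.362 and 0.0227). Fbn1, Loxl1, Fbln1, Fbln2, Efemp2 and the basement membrane collagens Col4a1, Col4a2 and Col18a1 passed neither test. Col4a1 had 381.6, 337.5 and 354.0 TPM.

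The AVC, which also forms cushions, was used to ask which of the higher members differ between the 2 cushion regions. Over all genes the OFT was higher than the AVC for 5.45% and lower for 6.24%. Among the genes higher than both chambers these shares were 11.8 and 0.76%. The comparisons with the chambers and with the AVC use the same OFT library. Of the 69 members 21 were higher in the OFT than in the AVC and 1, Msx2, was lower. By list, 8 of the 21 were neural crest, 5 second heart field, 5 vascular and 3 smooth muscle members.

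Rgs5 and Isl1 were farthest above the AVC among members listed in both, with 3.95 and 2.30 TPM there (log2 ratios 5.58 and 5.07, exact p = 5.28e-10 and 1.88e-08). Tnc followed with 47.7 TPM in the AVC, a log2 ratio of 3.54 and an exact p of 8.78e-06. Bmp4 with 9.05 TPM, Nrp2 with 11.03 TPM, Cxcl12 with 15.6 TPM and Sema3c with 36.4 TPM in the AVC were also lower there than in the OFT. Fgf8, Dlx2 and Tfap2a were not listed in the AVC. Other members shared the level of the OFT more closely: Sox9 had 514.0 TPM in the AVC (log2 ratio −0.36, exact p = 0.613), Vcan 412.8 TPM (0.06, exact p = 0.939) and Hspg2 131.2 TPM (0.18, exact p = 0.801). Acta2, which was not called against the chambers, was higher in the OFT than in the AVC, where it had 119.8 TPM (log2 ratio 1.82, exact p = 0.0143).

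**Figure D5:**
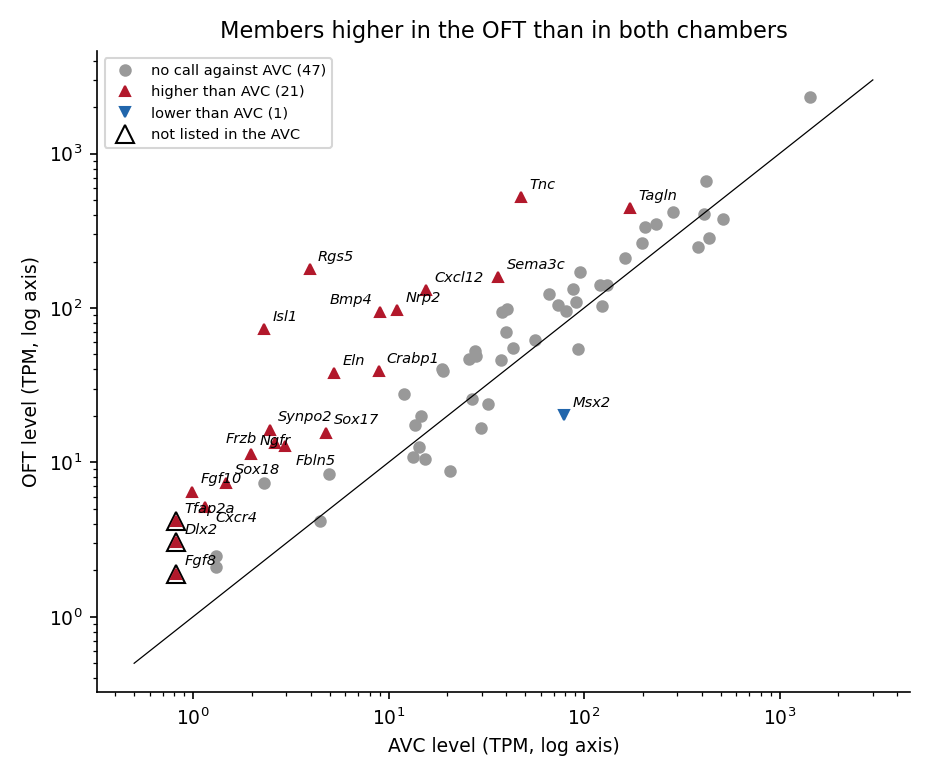
OFT level against AVC level in TPM, both on log axes, for the 69 members higher in the OFT than in both chambers, with the line of equal levels. Red triangles mark the 21 members also called higher than the AVC, the blue triangle marks Msx2, called lower, and grey circles the 47 without a call. Outlined symbols are not listed in the AVC and are drawn at the level of 5 tags.

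Markers of other cell types were counted in the same libraries. All 20 cardiomyocyte markers were found in the OFT, and their sum was 31048 TPM there, 12496 in atria and 31820 in ventricles. Of the 20, 4 were higher than both chambers (20%, near the 21% of all genes) and 1, Nppb, was lower (beside 10% of all genes). The higher ones were Tnnt2, cardiac troponin T, with 5906 TPM in the OFT, 197.6 in atria and 453.1 in ventricles, Myh7, a myosin heavy chain, with 2625, 5.79 and 190.8, Ttn, titin, with 693.9, 25.3 and 31.7, and Mybpc3, a myosin-binding protein, with 374.2, 24.2 and 86.7. The part of heart muscle in the values of Des, Tpm2 and Tagln was not tested. Of the regional markers, Myl2, the ventricular myosin light chain, had 1807 TPM in the OFT, 55.5 in atria and 6196 in ventricles, and Nppb, a natriuretic peptide of chamber muscle, had 155.7 TPM in the OFT, 870.9 in atria and 3754 in ventricles. Erythroid markers summed to 3089 TPM in the OFT, 215500 in atria and 46756 in ventricles. Klf1 and Gata1 were not listed in the OFT. Of the 11 erythroid markers found, 10 were lower in the OFT than in both chambers, beside 10% of all genes. Removing globin tags from the HQ totals in place of TMM kept 7 of the 14 lower members. This scaling also raises the ratios of the OFT over the chambers, so all 69 higher members were kept, as were all 2500 higher genes.

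Tissue next to the OFT could enter the dissection. Of 12 pharyngeal epithelium markers 5 were found, and they summed to 221.4 TPM in the OFT, 40.9 in atria and 42.6 in ventricles. Krt8 gave 211.9 of the 221.4 TPM and was higher than both chambers. Krt18 went the other way, with 8.16 TPM in the OFT, 22.7 in atria and 17.99 in ventricles, and was lower than both. Of 3 epithelium markers tested against both chambers 1 was thus higher and 1 lower, beside 21% and 10% of all genes. Epcam was not listed in the OFT, and Cdh1, Foxa2 and Pax9 were not found. The pharyngeal muscle genes Myf5 and Myog had 1.33 and 1.52 TPM in the OFT and were not listed in the chambers, and Myod1 was not found. Neuronal markers summed to 71.8 TPM in the OFT, 1.29 in atria and 11.4 in ventricles, with 57.7 TPM in the OFT from Stmn2. Of 5 neuronal markers tested against both chambers 3 were higher, beside 21% of all genes. Nefl had 1.90 TPM in the OFT, no listed tag in atria and 9.47 TPM in ventricles, and was lower than the ventricles. Myeloid markers summed to 3.99, 1.5 and 0 TPM, with Ptprc not listed in any of the 3 libraries. The part of such cells in the higher members was not tested.

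The 24 members that were not found all have tags of their own among the reference transcripts. Besides those named they are Dlx1, Dlx5, Dlx6 and Ret of the neural crest list, Eya1, Foxh1, Lhx2, Prdm1, Six2, Shh, Foxf1, Hoxb1, Osr1 and Grem1 of the second heart field list, Kcnj8 of the smooth muscle list, and Apln, Pgf, Adgrl4 and Cldn5 of the vascular list. Kit, Wnt2, Aplnr and Lyve1 were listed in the atria, with 7 to 30 tags, but neither in the OFT nor in the ventricles, and so could not be tested against both chambers.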

How the data were processed

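Tag-seq libraries of the OFT, atria, ventricles and AVC were analysed. The deposited files hold raw counts per tag type, which the authors made by cutting reads to the tag and dropping tag types with 5 or fewer tags. The mapping by the authors, to a build their notes give as mm9, was not used. No row lacked a tag.

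Virtual tags were taken at every NlaIII site of 33363 GENCODE M21 transcripts (GRCm38) linked to RefSeq, with 20 adenines added. Of 315529 distinct tags 308949 belong to 1 gene. Deposited tags that matched sense virtual tags of exactly 1 gene were assigned to it and added up per gene. This placed 72.2% of OFT tags, 73.6% of atria tags, 74.5% of ventricle tags and 70.7% of AVC tags. Whether a tag is unique in the genome was not checked, as no genome sequence was used. The older symbols Mkl1 and Mkl2 were matched as Mrtfa and Mrtfb.

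Under R 4.3.3, edgeR 4.0.16 was used to run its exact test on the gene counts of 2 libraries at a time with TMM effective library sizes over the OFT, atria and ventricles (over OFT and AVC for that pair), and a dispersion fixed at 0.12 as in the study's methods, since it cannot be estimated with 1 library per region. The methods pool both chambers as 1 group, which is an alternative here. Ratios against a gene not listed are bounds with 5 tags for each tag type of the gene seen in any of the 3 libraries, while the test counts them as 0. Intervals of 95% are exact binomial (Clopper-Pearson) limits on the share of HQ tags and cover counting error only. Tags were read after PCR without molecular identifiers.

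The members and lists were chosen with earlier results of these data known. Named with values are, in each list, up to 10 members called higher than both chambers in order of the larger exact p, all members called lower, 12 genes set by name, and others by level within a group. In 16 alternatives the scaling (DESeq2 1.42.0 size factors among them), dispersion, adjustment, count minimum, tags, transcripts, depth and grouping were changed. On simulated data with 200 genes changed, the procedure against both chambers recovered 46.5% of 4-fold changes among 11580 genes and 80.5% of 8-fold changes among 11579 genes. It called 3.70 and 3.60% of unchanged genes. These rates hold for the simulated data only and are no estimate of false calls in the real libraries. The dispersion between the real libraries is not known. The real libraries also differ in tag types per gene and in the share of tags from the 3′-most site. Tables were made with pandas 2.3.3, scipy 1.17.1 and numpy 2.4.6 under Python 3.11.15. The Twist1 null library was not used here. Some genes are not reported here.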

Additional observations from a re-analysis of the deposited data

How the results depend on the processing

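No paired analysis was possible because each region has 1 library. For the same reason no replicate could be left out. Against both chambers 2500 genes were higher and 1197 lower, against the atria 3348 and 1903, and against the ventricles 3479 and 1807. HQ totals without TMM gave 3892 higher and 600 lower against both, 5327 and 965 against the atria and 1189 lower against the ventricles, with 19 smooth muscle members higher, and HQ totals without globin tags gave 759 lower. With a dispersion of 0.4 the counts were 1234 and 316 against both, 1846 and 658 against the atria and 1852 and 582 against the ventricles, and 6 smooth muscle, 10 neural crest, 7 second heart field and 14 vascular members were higher. At least 50 tags per gene left 1492 higher against both, 2055 against the atria, 2116 against the ventricles and 7 second heart field members, and 5 tags for a missing tag type left 1206, 1594, 1665 and 5. Leaving out tags that begin with T gave 12 higher neural crest members. The chambers as 1 group of 2 libraries, which pools different tissues, gave 4086 and 1961. Higher calls made up 67.6% of calls against both chambers, 86.6% with HQ totals, 82.5% without globin tags, 79.6% with a dispersion of 0.4 and 54.3% with 5 tags filled in.

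Bmp4, Cxcl12, Gata3, Isl1, Jag2, Mef2c, Nrg1, Pecam1, Prox1, Rgs5, Rspo3, Sox9, Thbs1, Tnc, Vcan and Vegfa among the named higher members, and Ednrb, Hey1 and Tcf21 among the lower ones, kept their call in all 16 alternatives. With a dispersion of 0.4, 37 of the 69 higher and 5 of the 14 lower members remained, and with Benjamini-Hochberg adjusted p 58 and 8. Of all genes called higher, 49.4% remained with a dispersion of 0.4 and 76.8% with adjusted p. The sign turned for Tagln with the 3′-most site only, where the fitted log2 ratio was −7.06 from 13 and 12 chamber tags and none in the OFT, and for Aldh1a2 without tags that begin with T, where it was 5.89 from 10 OFT tags and none in the chambers. Fitted ratios against a count of 0 depend on the prior count. Nr2f2, Tbx18 and Ednrb rest mostly on a single tag type in the chambers.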
